A study of Mus musculus with 6 samples.

Results

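The tetraspanin genes of the mouse soleus were described in 3 Mustn1 KO-first HET and 3 WT mice. Members were the rows of the deposited normalized table whose symbol is Tspan followed by a number, or one of Cd9, Cd37, Cd53, Cd63, Cd81, Cd82, Cd151, Upk1a, Upk1b, Prph2 and Rom1. This gave 28 genes of the 16180 in that table, and their raw counts were taken from the table of 51912 genes by Ensembl identifier. Of the other genes that the rule names, Prph2 had 2 reads in 1 WT mouse and none elsewhere, and Upk1b and Tspan10 had 0 reads in all 6 libraries. None of these 3 has a row in the normalized table.

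Tetraspanins are small membrane proteins that cross the membrane with helices joined by a short and a long extracellular loop. They have no catalytic activity of their own and gather integrins, immunoglobulin-type proteins and proteases into membrane assemblies, and several are enriched on extracellular vesicles. In muscle, Cd9 and Cd81 are known for a part in the fusion of myoblasts, while other members mark leukocytes, platelets or endothelium.

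Both groups were C57BL6/N mice of 8 weeks with no treatment given in the labels, and 1 library was made per mouse from polyA RNA of whole soleus. HET mice carry 1 copy of the KO-first allele, a gene trap present in every cell of the body that catches the Mustn1 transcript in a reporter cassette, and the other copy is intact. WT mice were littermates. The labels give all 6 mice as male, but every library held 3858 to 9154 reads on Xist and 0 to 12 reads on 4 Y chromosome genes together, in both genotypes alike.

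Libraries held 26790075 to 50368796 reads on genes. Mustn1 had 471, 452 and 574 reads in HET mice 1 to 3 and 691, 817 and 1504 reads in WT mice 1 to 3. After scaling, this was 14.2 ± 2.33 against 27.5 ± 3.89 CPM (reads as a share of the TMM-scaled library size, in the usual CPM unit, SD, n = 3 each), with every HET mouse below every WT mouse and a log2 fold change of −0.96 (SE 0.15, edgeR quasi-likelihood test, Benjamini-Hochberg adjusted p = 0.0452). Muscle markers were high, with 6 slow-fiber genes summing to 33875 to 38087 CPM. None of these 6, and none of 7 fast-fiber genes, differed at an unadjusted p under 0.05. Of the 6 slow-fiber genes, 5 had a log2 fold change below 0, and of the 7 fast-fiber genes, 6. Of all 14696 genes tested, 7994 were below 0. Every HET mouse lay below every WT mouse in 1 slow-fiber and 3 fast-fiber genes (6.02% of all genes tested). In bulk RNA of this kind, fewer cells of a type and less RNA per cell cannot be told apart.

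The long extracellular loop holds the family's hallmark, a Cys-Cys-Gly motif. In the GENCODE M21 annotation of GRCm38, the coding sequences of all 28 members held codons for it in frame, against 567 of 21847 coding sequences of all genes (2.60%). In 7 members, Cd9 and Tspan8 among them, the codons occur at more than 1 place, and the place nearest to codon 150 was taken. The motif so chosen lay between codons 128 and 174, in coding sequences of 204 to 351 codons, and in 25 members the 27 bases around it lay across an exon junction. Shown are the 5 members with an unadjusted p under 0.05 in the comparison of genotypes and Tspan1, whose genotypes did not overlap either, read 5′ to 3′ on the coding strand with the Cys-Cys-Gly codons in capitals.
Cd53: caactgcagTGTTGTGGTgtaaatggc
Cd37: cagctgcgcTGCTGCGGCtggcaatct
Tspan8: gagttcaagTGCTGTGGCttggagaat
Tspan1: gagttgcatTGCTGTGGCtttaacaac
Cd9: gcgttggacTGCTGTGGCatagctggt
Tspan9: gagatgcggTGTTGTGGGgtcactgac
The motif shown starts at codon 144 of 219 in Cd53, 174 of 303 in Cd37, 151 of 235 in Tspan8, 149 of 240 in Tspan1, 150 of 226 in Cd9 and 147 of 239 in Tspan9. It lies over exons 6 and 7 in Cd37 and Tspan8 and over exons 5 and 6 in the other 4.

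Levels between members were compared per length, as CPM per kb of exon (RPKM). Cd151, the partner of laminin-binding integrins, had the highest level with 40.5 ± 3.24 RPKM (SD over 6 mice) and a range of 36.9 to 46.5. Tspan3 followed with 36.9 ± 1.77 RPKM and Cd81 with 25.9 ± 2.36 RPKM. The ranges of Cd151 and Tspan3 overlapped, and Cd81 lay below both in every mouse. These 3 genes held 42.1 to 46.0% of the summed RPKM of the family. The next 5 were Tspan13, Tspan7, Tspan31, Cd63 and Cd9, between 17.9 and 11.8 RPKM, and Tspan13 and Tspan7 overlapped, as did Cd63 and Cd9. Taken by the longest annotated transcript in place of the summed exons, the same 8 genes were highest, with Tspan3 then above Cd151.

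**Figure D1:**
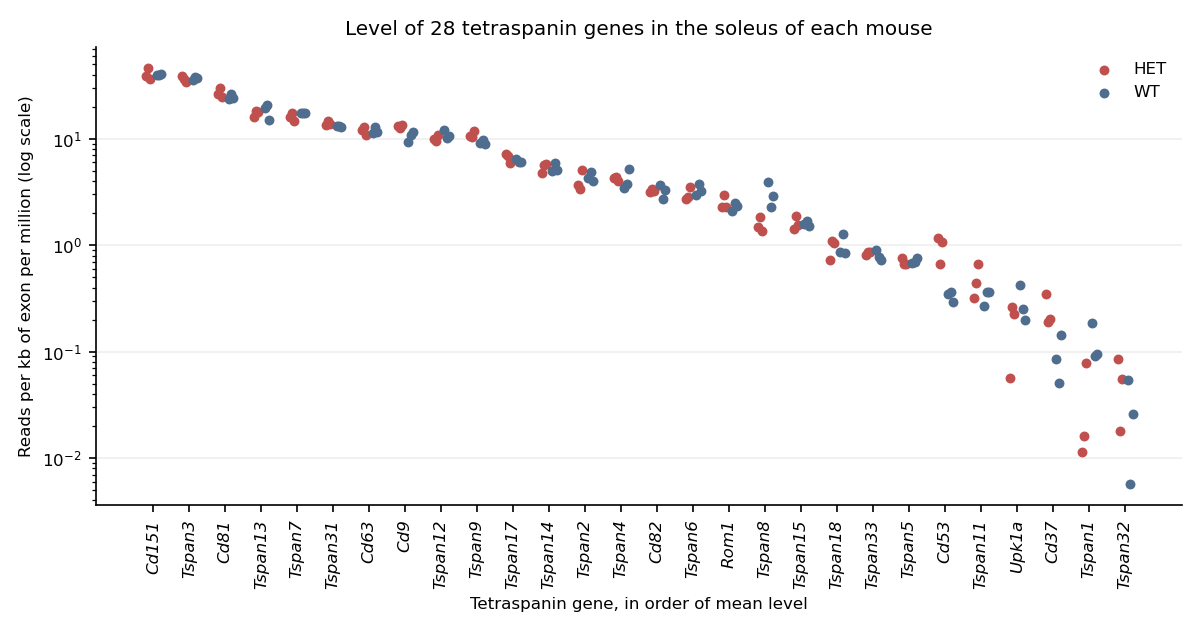
Level of each of the 28 tetraspanin genes in CPM per kb of exon (log axis), 1 point per mouse, with HET in red and WT in blue and genes in order of their mean. The levels run from 40.5 RPKM for Cd151 down to 0.0406 RPKM for Tspan32, and the genotypes lie apart for Cd53, Tspan8, Cd37 and Tspan1 in the lower part of the range.

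The lower end held the leukocyte genes together with Tspan11, Upk1a and Tspan1. The mean level over the 6 mice was 0.653 RPKM for Cd53, 0.170 RPKM for Cd37 and 0.0406 RPKM for Tspan32. It was 0.402 RPKM for Tspan11, 0.0799 RPKM for Tspan1 and 0.236 RPKM for Upk1a, a plaque protein of the bladder lining. Cd151 lay at percentile 94.5 of the genes tested by this measure and Cd53 at 23.4. For the 10 highest members the SD expected from counting alone was 1.33 to 3.37% of the mean, whereas Cd53 had 15.5%, Cd37 21.2% and Tspan1 38.7%.

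The family as a whole took 0.0812 to 0.0842% of the reads in HET mice and 0.0762 to 0.0801% in WT mice. After scaling, its sum was 796, 840 and 778 CPM in HET mice and 790, 821 and 789 CPM in WT mice, and these overlapped.

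The question of the comparison was which tetraspanins differed between soleus with 1 and with 2 intact copies of Mustn1. Of the 28 members, 27 passed the filter on low counts and Tspan1 did not. None of the 27 passed an adjusted p of 0.05 (edgeR quasi-likelihood test, Benjamini-Hochberg over 14696 genes). Of all genes tested, 0.15% passed, 0.143% higher and 0.0068% lower in HET. The paper used DESeq2 for its own comparison. Run here, DESeq2 called 2 members at that threshold, Cd53 higher (1.34% of all genes) and Tspan8 lower (0.0678% of all genes). edgeR with no filter on low counts called the same 2, with backgrounds of 1.33% higher and 0.0619% lower. limma-voom called 0 members, and its share over all genes was not taken. At an unadjusted p under 0.05, edgeR gave 4 members higher in HET (Cd53, Cd37, Cd9 and Tspan9; 5.76% of all genes tested) and 1 lower (Tspan8; 2.0% of all genes tested). Together these were 18.5% of the members tested, against 7.76% of all genes. The count includes Cd37, which passed the filter mainly through the HET mice, and with at least 10 reads required in every library 3 members were higher in place of 4.

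The median log2 fold change was 0.02 over the members tested and −0.02 over all genes tested, with 16 members above 0 and 11 below. Every HET mouse lay above every WT mouse in 5 members (7.55% of all genes) and below in 2 (6.02% of all genes), and in Tspan1 as well. For 18 of the 27 the 95% interval of the log2 fold change lay within ±0.5.

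**Figure D2:**
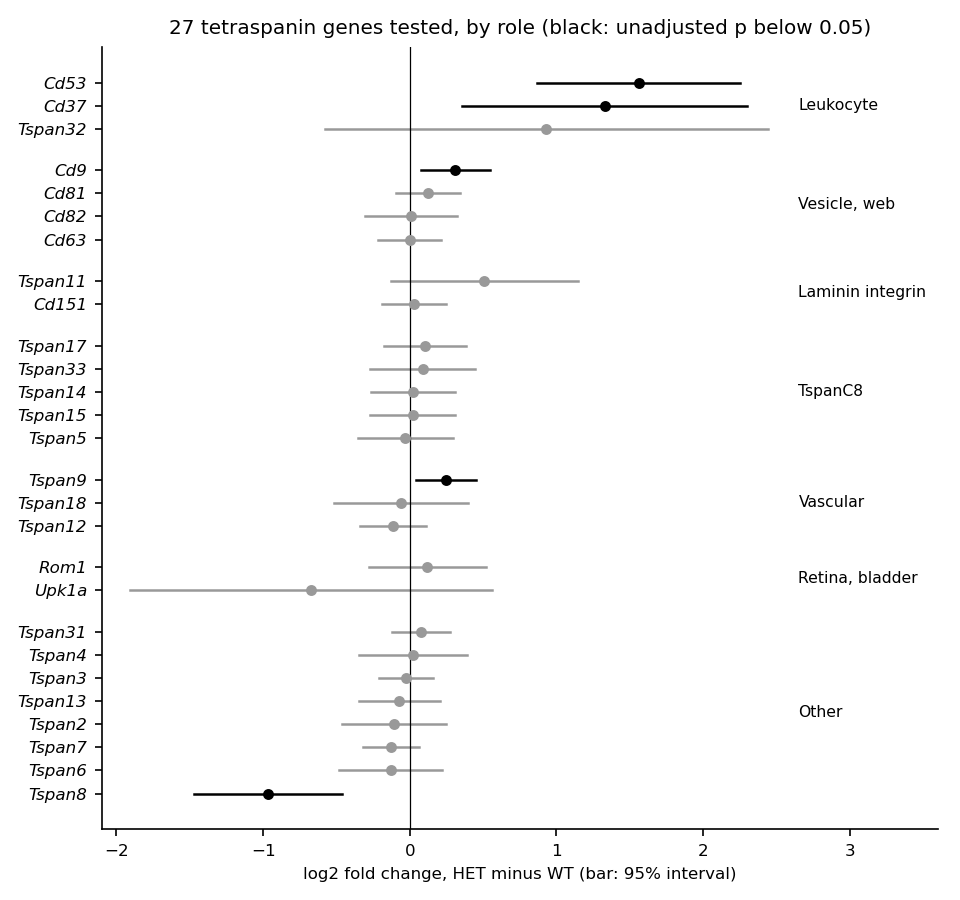
Log2 fold change, HET minus WT, of the 27 tetraspanins tested, grouped by role, with the 95% interval of edgeR as a bar and genes at an unadjusted p under 0.05 in black. Cd53 and Cd37 stand at 1.56 and 1.33, Tspan8 at −0.97, and Cd9 and Tspan9 at 0.31 and 0.25, while most other members have short bars over 0.

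The leukocyte tetraspanins gave the largest values above 0. Cd53 (ENSMUSG00000040747, chromosome 3, 106759921 to 106790149, minus strand, GRCm38) is found across the leukocyte lineages. It had 77, 31 and 82 reads in HET mice 1 to 3 and 18, 18 and 25 in WT mice, or 2.06, 1.16 and 1.87 against 0.602, 0.638 and 0.506 CPM. The lowest HET mouse, HET 2, lay well above the highest WT mouse. The means were 1.69 ± 0.476 and 0.582 ± 0.0681 CPM (SD, n = 3 each), 2.91-fold apart, with a log2 fold change of 1.56 (SE 0.31, 95% interval 0.87 to 2.25). In edgeR the p was 0.000477 and the Benjamini-Hochberg adjusted p 0.108. In DESeq2 the adjusted p was 0.00603 and in edgeR with no filter it was 0.00078. Leaving out single mice gave log2 fold changes of 1.40 to 1.77.

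Cd37 (ENSMUSG00000030798, chromosome 7, 45233632 to 45239115, minus strand) is a tetraspanin of B cells and other leukocytes. It had 46, 18 and 31 reads in HET mice 1 to 3 and 9, 5 and 25 in WT mice, or 1.23, 0.671 and 0.706 against 0.301, 0.177 and 0.506 CPM. HET 1 was the highest, and WT 3 came nearest to the HET mice. With under 10 reads in WT 1 and WT 2, the gene passed the filter on low counts mainly through the HET mice. The log2 fold change was 1.33 (SE 0.44, 95% interval 0.36 to 2.30, edgeR, Benjamini-Hochberg adjusted p = 0.385). Tspan32, a further gene of blood cells, had 20, 3 and 15 reads against 10, 1 and 8, and the genotypes overlapped. Its log2 fold change was 0.93 with a wide 95% interval of −0.58 to 2.44.

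Markers of leukocytes were higher in HET mice too. The summed level of 6 pan-leukocyte markers was 21.3 to 26.8 CPM in HET and 9.36 to 12.4 CPM in WT mice, and 6 of 6 had an unadjusted p under 0.05, 2 of them an adjusted p under 0.05 in edgeR. For 12 macrophage markers the sums were 92.7 to 131 CPM in HET and 53.9 to 62.6 CPM in WT mice. Of the 12, 10 were higher at an unadjusted and 5 at an adjusted p under 0.05. Over all genes tested, 5.76% were higher at an unadjusted and 0.143% at an adjusted p under 0.05 in edgeR. For 8 lymphocyte markers the sums were 4.65 to 5.70 CPM in HET and 3.12 to 3.78 CPM in WT mice. Of the 8, 2 passed the filter, and of these Ighm, the heavy chain of B cell IgM, had a log2 fold change of 0.71 with an unadjusted p under 0.05, while Cd79b was at −0.31. The defining markers Cd3e of T cells and Ms4a1 of B cells had 1 to 3 and 0 to 7 reads per library. As a percentage of the pan-leukocyte sum, Cd53 was 9.67, 5.04 and 6.97 in HET mice 1 to 3 and 5.03, 5.16 and 5.41 in WT mice, so on this scale the genotypes overlapped. As a percentage of the macrophage sum, Cd53 was 1.82, 1.25 and 1.43 in HET mice and 1.12, 1.02 and 0.850 in WT mice, and on that scale every HET value was above the WT values. Cd37 overlapped on both scales, at 5.78, 2.93 and 2.63 against 2.51, 1.43 and 5.41 percent of the pan-leukocyte sum and 1.09, 0.724 and 0.539 against 0.558, 0.283 and 0.850 percent of the macrophage sum. The part of leukocyte content in the values of Cd53 and Cd37 was not tested.

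**Figure D3:**
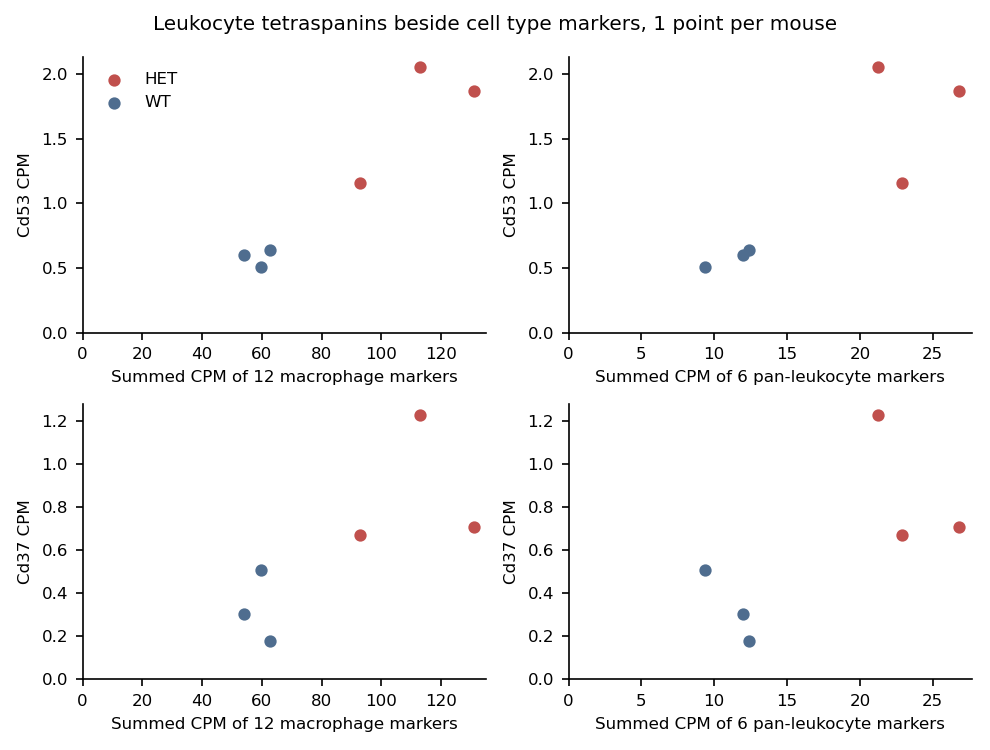
CPM of Cd53 (top) and Cd37 (bottom) in each mouse against the summed CPM of 12 macrophage markers (left) and 6 pan-leukocyte markers (right), with HET in red and WT in blue. The HET mice lie above the WT mice on every axis, at 92.7 CPM or more of macrophage markers against 62.6 or less in WT.

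Promoter sequences from RefSeq on GRCm38.p6, from 250 bases before to 50 after each start, were found for 27 of the 28 members. The letters GAGGAAGT, which resemble the site of the ETS factor PU.1 of blood cells, were searched on both strands. They were in 1052 of 32851 promoters (3.20%) and in 4 of the 37 promoters of the members, those of Cd53, Cd37, Cd82 and Tspan14. These windows are shown because 2 of the 4 belong to the leukocyte genes above. Each is read 5′ to 3′ on the strand of its gene, the minus strand in all 4, with the matched letters or their reverse complement in capitals.
Cd53: actcagtctcACTTCCTCactcttctcg
Cd37: cccccccggaACTTCCTCtttctctgcc
Cd82: gttccagaagGAGGAAGTtgattgagat
Tspan14: cagtcccctgGAGGAAGTgggaggagtg
They lie at chr3:106790126-106790153, chr7:45238847-45238874, chr2:93462059-93462086 and chr14:40948198-40948225. Cd82 and Tspan14 had log2 fold changes of 0.01 and 0.02. The shorter GAGGAA, which lies within the longer motif, was in 10 member promoters and in 28.3% of all promoters. Tspan32, also a leukocyte gene, held the shorter letters but not the longer ones.

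Tspan8 (ENSMUSG00000034127, chromosome 10, 115816832 to 115849893, plus strand) is known from epithelia and tumours of the gut. It had 95, 85 and 102 reads in HET mice 1 to 3 and 202, 110 and 244 in WT mice, or 2.54, 3.17 and 2.32 against 6.76, 3.90 and 4.94 CPM. Every HET mouse lay below every WT mouse, with HET 2 and WT 2 the nearest. The means were 2.68 ± 0.438 and 5.20 ± 1.44 CPM (SD, n = 3 each), with a log2 fold change of −0.97 (SE 0.23, 95% interval −1.47 to −0.46). In edgeR the p was 0.00156 and the Benjamini-Hochberg adjusted p 0.168. DESeq2 gave an adjusted p of 0.0109 and edgeR with no filter 0.000925. Leaving out single mice gave values of −1.13 to −0.74.

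Tspan1 (ENSMUSG00000028699, chromosome 4, 116161869 to 116167601, minus strand), also best known from epithelia, had 1, 1 and 8 reads in HET mice 1 to 3 and 13, 6 and 11 in WT mice. On the CPM scale the HET mice lay below all WT mice, at 0.0267, 0.0373 and 0.182 against 0.435, 0.213 and 0.223, although HET 3 had more reads than WT 2. Fitted without the filter, its log2 fold change was −1.65 (edgeR, Benjamini-Hochberg adjusted p = 0.582). Of 7 epithelial markers, Cldn4 had 0 reads in all libraries, Krt8 at most 1 and Epcam at most 5. The 2 that passed the filter on low counts went opposite ways. Krt19 had a log2 fold change of 0.49 and Cdh1 of −0.56, neither at an unadjusted p under 0.05 in edgeR. The summed level of these 7 was 1.23 to 1.94 CPM in HET and 0.736 to 1.82 CPM in WT mice, which overlapped. Upk1a had 3, 10 and 14 reads against 18, 10 and 14, with a 95% interval of −1.91 to 0.56.

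**Figure D4:**
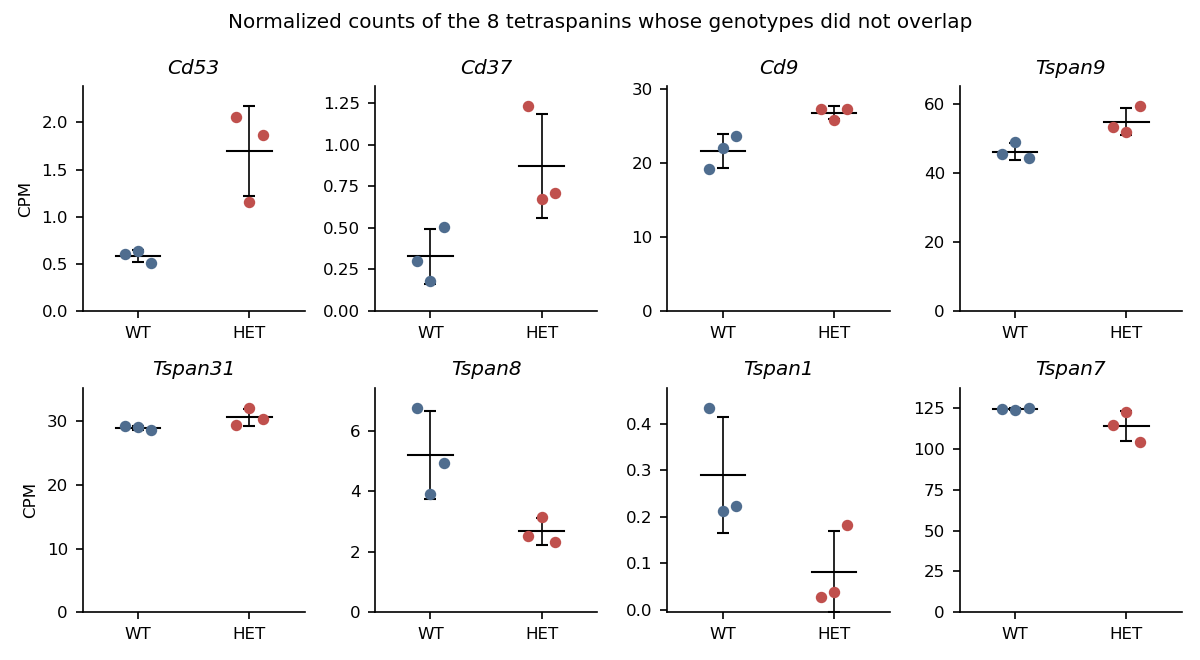
CPM of the 8 tetraspanins whose genotypes did not overlap, with 1 point per mouse, a line at the mean and bars for the SD (n = 3 per genotype); each panel includes 0 and has its own scale. The gap is wide for Cd53 and narrow for Tspan31 and Tspan7, where the nearest HET and WT mice almost touch.

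The tetraspanins of extracellular vesicles and of membrane assemblies were led by Cd9. Cd9 (ENSMUSG00000030342, chromosome 6, 125460266 to 125494791, minus strand) had 27.2, 25.9 and 27.3 CPM in HET mice 1 to 3 and 19.2, 22.0 and 23.7 CPM in WT mice. All HET mice were above all WT mice, with WT 3 the nearest. The log2 fold change was 0.31 (SE 0.11, 95% interval 0.07 to 0.54, edgeR, Benjamini-Hochberg adjusted p = 0.415). Without WT 1 it was 0.23 and the unadjusted p no longer fell under 0.05. Its close relative Cd81 had 77.8 ± 8.04 against 71.4 ± 4.45 CPM, Cd63 of late endosomes and exosomes 44.0 ± 3.70 against 44.0 ± 2.74, and Cd82 9.79 ± 0.384 against 9.72 ± 1.52 (SD, n = 3 each). The genotypes overlapped in all 3, and the 95% intervals were −0.09 to 0.34 for Cd81, −0.22 to 0.21 for Cd63 and −0.30 to 0.32 for Cd82. Of the 50-base words of Cd63, 36.5% are shared with its pseudogene Cd63-ps, so its reads could be split or lost in counting. Cd63-ps had 36 to 57 reads in HET and 35 to 56 in WT mice, where Cd63 had 1267 to 1753 and 1251 to 2129. Reads lost in counting cannot be seen in these values.

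Among the members named for vessels and platelets, Tspan9 (ENSMUSG00000030352, chromosome 6, 127961396 to 128143594, minus strand), a tetraspanin of platelets, had 53.1, 51.8 and 59.2 CPM in HET mice 1 to 3 and 45.5, 48.8 and 44.1 CPM in WT mice. The HET mice were again all above the WT mice, with HET 3 the highest. The log2 fold change was 0.25 (SE 0.09, 95% interval 0.04 to 0.45, edgeR, Benjamini-Hochberg adjusted p = 0.468), and the unadjusted p was under 0.05 in 3 of 6 fits with a mouse left out. Tspan12, a co-receptor of Norrin and Fzd4 signaling, had a 95% interval of −0.34 to 0.11, and Tspan18, a partner of the calcium channel Orai1 in endothelium, one of −0.52 to 0.40. The genotypes overlapped in both. None of 8 endothelial markers had an unadjusted p under 0.05.

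Markers of fibroblasts are given beside Cd9 and Tspan9, with sums of 2040, 2698 and 3128 CPM for 10 genes in HET mice and 1020, 1585 and 1516 CPM in WT mice. Of these 10, 9 had an unadjusted p under 0.05, higher in HET (5.76% of all genes tested). In edgeR, 1 of them had an adjusted p under 0.05 (0.143% of all genes tested). The part of fibroblast content in the values of Cd9 and Tspan9 was not tested.

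The most abundant members differed little. Cd151 had 108, 127 and 101 CPM in HET mice and 109, 108 and 112 CPM in WT mice, with a log2 fold change of 0.03 (95% interval −0.19 to 0.25). Tspan3 had 156 ± 10.5 against 159 ± 5.29 CPM (SD, n = 3 each) and an interval of −0.21 to 0.16. Tspan13 had an interval of −0.35 to 0.20. These intervals bound the change, and do not show that the levels were equal.

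Tspan7 and Tspan31 had genotypes that did not overlap, but by little. Tspan7 had 114, 123 and 104 CPM in HET mice and 125, 124 and 125 CPM in WT mice, with a log2 fold change of −0.13 (SE 0.09, edgeR, Benjamini-Hochberg adjusted p = 0.833). The WT mice were close to each other, with a coefficient of variation of 0.437%, and HET 2 lay just below them. Tspan31 had 29.3, 32.0 and 30.3 against 29.2, 29.1 and 28.6 CPM, with a log2 fold change of 0.08 (SE 0.09). Tspan11, which like Cd151 is tied to laminin-binding integrins, had 1.68, 2.35 and 3.51 against 1.44, 1.95 and 1.92 CPM and overlapped, with a 95% interval of −0.13 to 1.14.

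The TspanC8 group, which carries the protease Adam10 to the cell surface, had 5 members tested beside Tspan10 with its 0 reads, from −0.03 for Tspan5 to 0.10 for Tspan17 on the log2 scale, and none with an unadjusted p under 0.05. Adam10 itself was at −0.08 (SE 0.10). Rom1, a gene of the photoreceptor disc rim, was at 0.12 (SE 0.18), and the remaining members Tspan2, Tspan4 and Tspan6 lay between −0.13 and 0.02.

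Partners of the family were taken from 5 lists with 41 genes, of which 36 were tested. Of these, 20 were above 0, with a median log2 fold change of 0.02, and 0 passed the adjusted p in edgeR. At an unadjusted p under 0.05, 4 were higher (5.76% of all genes tested) and 0 lower (2.0% of all genes tested). DESeq2 and edgeR with no filter each called 2 partners higher, Emb and Ptgfrn (1.34% and 1.33% of all genes). limma-voom called 0 partners, again without a share over all genes. Ptgfrn, an immunoglobulin-type partner of Cd9 and Cd81, had 34.8, 34.9 and 43.8 CPM in HET mice and 22.0, 28.7 and 27.5 CPM in WT mice. The HET mice lay above all WT mice, and the log2 fold change was 0.54 (SE 0.13, edgeR with Benjamini-Hochberg adjusted p = 0.184). Emb, an adhesion protein of the same type, was at 1.45 (SE 0.34, edgeR with Benjamini-Hochberg adjusted p = 0.161). It passed without WT 3, at an adjusted p of 0.0320, and with the replicate number as a block, at 0.0460. Itga4, an integrin chain of leukocytes, was at 0.67 (SE 0.24) and Notch2, a substrate of Adam10, at 0.33 (SE 0.12).

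The integrin chains Itgb1 and Itga7 of muscle were at 0.06 and 0.02. The 12 genes of vesicle release ran from −0.23 for Rab27a to 0.29 for Rab27b with none at an unadjusted p under 0.05. Of the 5 genes listed with Norrin and Fzd4, which include Orai1 as the partner of Tspan18, 4 were tested. None passed either, with Fzd4 at −0.04.

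Several members lie close together in the genome. Tspan11 and Tspan9 are 7.42 kb apart, Cd151 and Tspan4 3.77 kb, Tspan32 and Cd81 33.1 kb, and Tspan18 and Cd82 84.6 kb. Within these pairs the log2 fold changes were 0.51 and 0.25, 0.03 and 0.02, 0.93 and 0.12, and −0.06 and 0.01. Apart from Tspan15, which shares 0.477% of its exon bases with a microRNA gene on its strand, no member shared exon bases with a gene on the same strand.

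**Figure D5:**
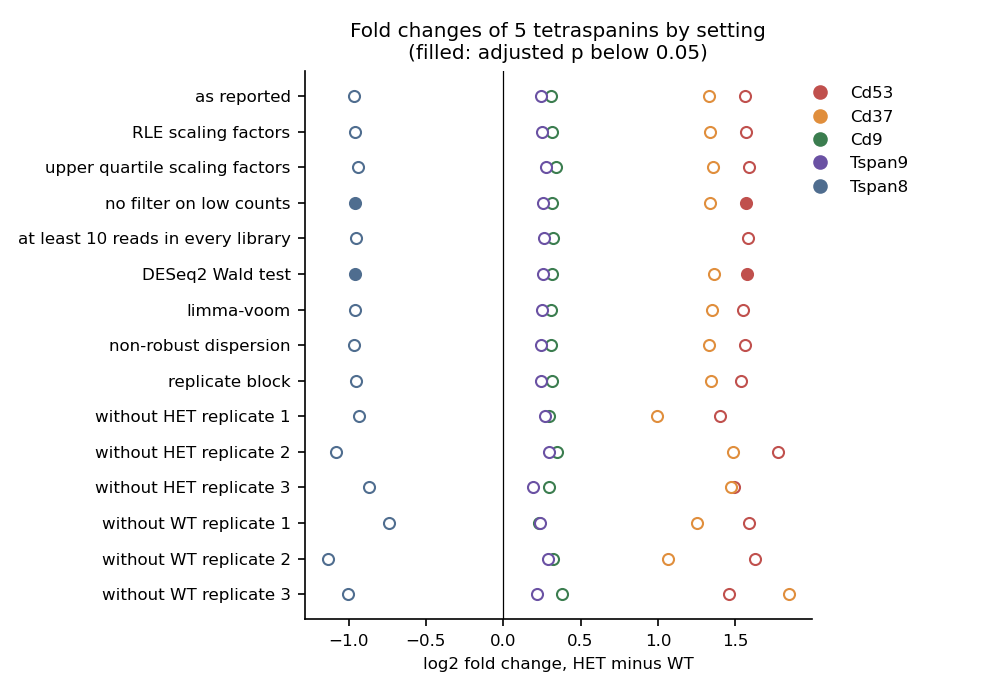
Log2 fold change, HET minus WT, of the 5 tetraspanins with an unadjusted p under 0.05, as reported and under each of 14 other settings, with filled points where the adjusted p was below 0.05. The sign of each gene was the same wherever it could be fitted, and filled points appear for Cd53 and Tspan8 only, with DESeq2 and with no filter on low counts.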

How the data were processed

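RNA of the soleus was sequenced from 3 HET and 3 WT mice, grouped by the sample titles. Per the labels and methods, the authors aligned reads with STAR 2.7.3a to GRCm38.p6 and deposited raw counts per gene from featureCounts 2.0.3 in reverse-stranded mode. The authors also deposited a normalized signal, each raw count divided by a DESeq2 size factor, used here only to find the members. The authors' table of their own comparison (fold changes and p-values) was not used.

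The members and gene lists were chosen with earlier results of these data known. From the raw counts, genes were kept by filterByExpr with a minimum count of 10 and compared with edgeR 4.0.16 (R 4.3.3, TMM factors, robust quasi-likelihood, genotype only, all 6 libraries, two-sided, Benjamini-Hochberg over 14696 genes). SE is the log2 fold change over the square root of F. The biological coefficient of variation was 0.143. RPKM used the gene length in the count table. Members were named singly where p was under 0.05, where genotypes did not overlap, or where among the 8 highest per length. Partners were named at p under 0.05 or, for vesicle release, at the ends of the range. Further members and partners were named by their role after their values were seen. Lists covered partners (integrins, immunoglobulin-type, Adam10 and substrates, vesicle release, Norrin and Fzd4 with Orai1). Further lists covered markers of leukocytes, macrophages, lymphocytes, fibroblasts, tendon, endothelium, smooth muscle, pericytes, Schwann cells, adipocytes, satellite cells, fibers and epithelium. No exact permutation test of 3 against 3 can go below p = 0.1. Alternatives used DESeq2 1.42.0 (genes with 10 or more reads in total), limma-voom (limma 3.58.1), other scaling and filters, the replicate number as a block, and each mouse left out. The steps were tested on simulated data. Python 3.11.15 with pandas 2.3.3 served for tables and plots. The values of 1 listed gene are not reported here.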

Additional observations from a re-analysis of the deposited data

How the results depend on the processing

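In this paragraph a member or partner is counted as called at an adjusted p under 0.05 in edgeR with Benjamini-Hochberg adjustment unless stated. Without a filter on low counts and with DESeq2, 1 tetraspanin was called higher and 1 lower in HET, where the reported fit called 0, and 2 partners were called higher in place of 0. Without the filter, 2 tetraspanins were lower at an unadjusted p under 0.05 in place of 1, 5 were higher in place of 4 (3 with at least 10 reads in every library), and 7 partners were higher in place of 4. The cause of these changes was not tested. Of all genes, 1.33% were called higher and 0.0619% lower without the filter, and 1.34% and 0.0678% with DESeq2. Shares of all genes at an unadjusted p were taken for the reported fit only, at 5.76% higher and 2.0% lower. For the other settings, the counts at an unadjusted p stand without a background. With each mouse left out in turn, tetraspanins higher at an unadjusted p under 0.05 numbered 2 to 4 (2 without WT 1) and those lower 1 to 2 (2 without HET 2 or without HET 3). Partners higher numbered 2 to 5 (2 without HET 3 or without WT 1), partners lower 0 to 1 (1 without WT 3), and partners called higher 0 to 1 (1 without WT 3, Emb). The unadjusted calls of Cd37 and Cd9 were each lost in 1 of 6 such fits, and that of Tspan9 in 3.

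The correlation of deviations between mice of the same number was 0.203, −0.00578 and −0.0349. Between mice of different numbers it ran from −0.137 to 0.133. With 3 mice per genotype, these values cannot show whether the numbers pair the mice. With the replicate block, Cd53 had a log2 fold change of 1.53 (adjusted p = 0.102) and Tspan8 of −0.95 (adjusted p = 0.168), tetraspanins at an unadjusted p under 0.05 stayed at 4 higher and 1 lower, and partners called higher went from 0 to 1, with Emb.

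Over 14 settings, the adjusted p ran from 0.00078 to 0.395 for Cd53 and from 0.000925 to 0.601 for Tspan8. No tetraspanin with an unadjusted p under 0.05 changed sign, and 345 of the values of single members kept sign and call, 4 passed the threshold and 26 changed sign without a call. The median over all genes stayed between −0.04 and 0.01. Depth limits Cd53, Cd37, Tspan32, Upk1a and Tspan1, which had at most 82 reads in any library.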

Other observations

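Marker lists not used above gave the following. Of 7 tendon markers, 7 were above 0, against 6702 of the 14696 genes tested. At an unadjusted p under 0.05, 5 were higher in HET (5.76% of all genes tested). The sums of the 7 were 356, 613 and 564 CPM in HET mice 1 to 3 against 118, 248 and 288 CPM in WT mice. None of 6 smooth muscle markers and none of 5 adipocyte markers had an unadjusted p under 0.05. The 5 adipocyte markers were all above 0, with a median log2 fold change of 0.95. Their sums were 26.4, 73.5 and 39.5 CPM in HET mice 1 to 3 against 7.93, 7.87 and 47.0 CPM in WT mice, which overlapped. Of 5 pericyte markers, 2 were above 0 and 3 below, with Rgs5 at a log2 fold change of −0.33 (SE 0.11). Of 6 satellite cell markers, 1 was above 0 and 5 below, with Myf5 at −0.59 (SE 0.15). Of 7 Schwann cell markers, 5 were above 0 and 2 below, with S100b at 0.71 (SE 0.29). Each of these named genes was the only one of its list at an unadjusted p under 0.05 in edgeR. Over all genes tested, 2.0% were lower and 5.76% higher at that threshold.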
